A study of Homo sapiens with 6 samples.

Results

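The SOXB transcription factors are 5 of the 27672 genes in the table: the SOXB1 genes SOX1, SOX2 and SOX3, and the SOXB2 genes SOX14 and SOX21. They were picked by gene symbol as members of the family, with no threshold on measured values, and all 5 symbols are present. Polyadenylated RNA was sequenced from 3 biological replicates of undifferentiated H9 cells, a human embryonic stem cell line (hESCs, day 0), and from 3 biological replicates of neuromesodermal progenitor-like (NMP-L) cells made from the same line (day 3). Per the labels, the untreated hESCs were kept on fibronectin in DEF medium, to which bFGF (30 ng/ml) and the BMP inhibitor Noggin (10 ng/ml) were added, whereas the methods of the study name TESR medium on Geltrex. The NMP-L cells were grown for 3 days in Neurobasal-type medium with N2, B27 and bFGF at 20 ng/ml. CHIR99021 at 3 µM was added to activate Wnt signalling, and bFGF was present in both conditions. The labels name Noggin for the hESCs only, whereas the methods of the study also describe Noggin and a TGFβ inhibitor from day 2 of differentiation. Whether the NMP-L libraries come from cells given these inhibitors is unclear. The comparison asks how SOXB transcripts differ between pluripotent cells and cells with the joint neural and mesodermal potential of the caudal embryo. It rests on 1 cell line and on bulk RNA, in which more expressing cells and more RNA per cell cannot be told apart. Libraries held between 19454543 and 23036426 expected counts. The marker T (Brachyury), which identifies NMP-L cells together with SOX2, had 0, 0 and 2 counts in hESCs and 537, 293 and 629 in NMP-L cells.

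SOX proteins bind DNA through an HMG box. The SOXB1 proteins are transcriptional activators that overlap in function. SOX2 holds pluripotent cells in their state together with the POU factor OCT4 (POU5F1), and the SOXB1 proteins maintain neural progenitors, where their POU and PAX partners differ. The SOXB2 proteins bind similar sites and mostly act as repressors. In neuromesodermal progenitors SOX2 and Brachyury are found in the same cells, and SOX1 is known as an early marker of the committed neural plate.

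All 5 are single-exon genes. In the annotation used here (GENCODE 44 on GRCh37), SOX1 lies on chromosome 13 from 112721463 to 112726020, SOX2 on chromosome 3 from 181429713 to 181432224, SOX3 on chromosome X from 139585150 to 139587234, SOX14 on chromosome 3 from 137483157 to 137485176, and SOX21 on chromosome 13 from 95361876 to 95364799. SOX3 and SOX21 are on the minus strand. Their coding sequences are so alike that a 76-base read can fit more than 1 of them. The stretch below is the 76-base coding window of SOX2 that is closest to all 4 relatives, inside the HMG box, each with its own best ungapped match. Capitals mark bases that differ from SOX2.

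SOX2 (chr3:181430287-181430362, plus strand): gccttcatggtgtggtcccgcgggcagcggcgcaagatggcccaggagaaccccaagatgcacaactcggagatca

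SOX1 (chr13:112722141-112722216, plus strand): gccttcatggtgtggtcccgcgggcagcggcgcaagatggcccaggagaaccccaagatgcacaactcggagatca

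SOX3 (chrX:139586718-139586793, minus strand): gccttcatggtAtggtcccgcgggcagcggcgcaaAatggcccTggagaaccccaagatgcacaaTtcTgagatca

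SOX14 (chr3:137483666-137483741, plus strand): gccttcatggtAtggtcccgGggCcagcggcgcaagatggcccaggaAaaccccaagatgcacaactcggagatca

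SOX21 (chr13:95364189-95364264, minus strand): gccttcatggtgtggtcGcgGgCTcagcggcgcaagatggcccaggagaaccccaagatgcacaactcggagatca

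SOX1 and SOX2 did not differ at any base of this window, and their longest identical run was 89 bases. SOX3 differed from SOX2 at 5 bases, SOX14 at 4 and SOX21 at 4. Across whole transcripts the closest 76-base windows of SOX2 and SOX21 differed at 1 base, those of SOX1 and SOX21 at 2, and those of SOX1 and SOX3 at 3. Reads of this kind left a trace in the deposited counts. RSEM divides a read that fits several genes, and SOX2 and SOX21 had fractional counts in 4 libraries, joined by SOX1 in 2 of them. In each of these 4 libraries the fractions added up to 1 (0.08 of SOX1, 0.71 of SOX2 and 0.21 of SOX21 in NMP-L replicate 1, for example). The number of whole reads divided in this way cannot be read from the fractions. In hESC replicate 3 and NMP-L replicate 3 every SOXB count was whole, and these libraries are given separately below for the genes concerned.

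SOX2 transcripts were abundant in both conditions and did not change detectably. SOX1 rose from near the detection limit, SOX21 rose by somewhat less than 2-fold, SOX3 showed no detectable change, and SOX14 was not detected beyond 2 counts in all 6 libraries. Of the 5 genes, 4 passed the filter on low counts, and 2 of these 4 (SOX1 and SOX21) differed between conditions, both higher in NMP-L cells. SOX1, with 7, 13 and 4 counts in hESCs, passed this filter only through its NMP-L libraries, where it was high. Across all 15517 genes tested, 55.8% differed, 29.1% being higher and 26.7% lower in NMP-L cells, so that a count of 2 in 4 is close to the background. SOX1 also changed by at least 2-fold, as did 9.38% of the genes tested in that direction. What sets the family members apart from each other is the size of the change.

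**Figure D1:**
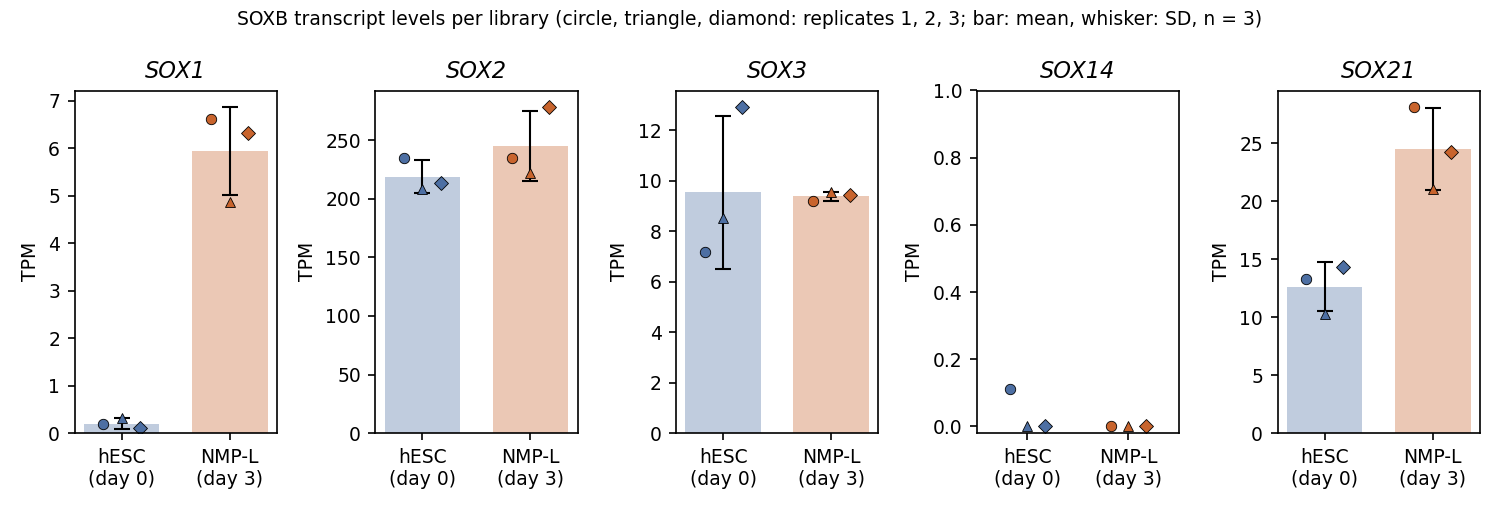
TPM (transcript abundance corrected for transcript length and library size) of each SOXB gene in hESCs (day 0, blue) and NMP-L cells (day 3, orange). Points are libraries, bars the mean of 3 and whiskers the SD, each panel has its own axis, and SOX14 is drawn as points only. SOX1 and SOX21 do not overlap between conditions, whereas the ranges of SOX2 and SOX3 do.

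SOX2, the SOXB1 gene required for pluripotency and the neural marker of the NMP-L state, was the most abundant member in every library. Its level was 234.85, 208.2 and 213.83 TPM in hESC replicates 1, 2 and 3, and 234.86, 222 and 278.44 TPM in the NMP-L replicates. The ranges overlapped, with NMP-L replicate 3 standing above the other 5 libraries. SOX2 ranked between 520 and 703 among all genes by TPM. In CPM (counts divided by the TMM-scaled library size, not corrected for length) it was 266 ± 12.6 in hESCs and 278 ± 23.6 in NMP-L cells (SD, n = 3 each). The log2 fold change was 0.06 (standard error 0.08, adjusted p = 0.53 by edgeR's quasi-likelihood test), and its 95% interval from -0.12 to 0.24 corresponds to between 0.923 and 1.18 times the hESC level. A change of 2-fold in either direction lies outside this interval. Without NMP-L replicate 3 the log2 fold change was -0.0014.

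SOX1 was all but absent from hESCs and present at a low level in NMP-L cells. Its counts were 7, 13 and 4 in hESCs, against 284.08, 197.03 and 274 in NMP-L cells, where 3 counts were taken as the detection limit. In TPM this was 0.19, 0.32 and 0.1 in hESCs and 6.63, 4.88 and 6.32 in NMP-L cells. Every NMP-L library lay far above every hESC library, and 61.6% of all genes tested had ranges that did not overlap. The fitted rise was 26.4-fold, with a 95% interval from 17.5 to 39.8 (log2 fold change 4.72, standard error 0.27, adjusted p = 7.6e-08 by edgeR's quasi-likelihood test). Only 61 of the genes tested, or 0.393%, had a larger log2 fold change, and SOX1 was tested only through its NMP-L libraries. The size of this ratio rests on 24 counts in the hESC libraries together. In replicate 3 of each condition, where no SOXB count was fractional, SOX1 had 4 and 274 counts. With a pseudocount of 1 on the TPM scale the log2 fold change was 2.52, since a pseudocount of this size exceeds the hESC level.

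Markers of neural and other cell types are given beside this rise. The background for the numbers of changed markers is the full set of genes tested. Of that set 55.8% passed the threshold, 29.1% upward and 26.7% downward. Of 8 neural progenitor markers 3 could be tested, with 1 higher, 1 lower and 1 that did not pass. HES5, a Notch effector, was higher (log2 fold change 2.77, standard error 0.44, adjusted p = 2.5e-04 by edgeR), FABP7, a marker of radial glia, was lower (-1.66), and IRX3 did not pass the test (-0.49, adjusted p = 0.090 by edgeR). PAX6, which marks neural progenitors of the spinal cord, had 3, 8 and 7 counts in hESCs and 1, 0 and 0 in NMP-L cells. The summed level of the 8 markers was 11.6 to 13.1 CPM in hESC libraries and 5.96 to 6.38 CPM in NMP-L libraries, and no marker was at 0 in all NMP-L libraries. FABP7 carried this fall, since the other 7 markers summed to 2.67 to 3.92 CPM in hESC libraries and 3.13 to 3.64 CPM in NMP-L libraries. Of 4 neural crest markers, SNAI2 was higher and SOX10 lower among the 2 tested, and their sum was 5.87 to 7.82 CPM in hESCs and 3.81 to 4.05 CPM in NMP-L cells. Of 6 endoderm markers, the 3 that could be tested (FOXA2, HHEX and EOMES) were higher, and the sum went from 4.42 to 4.70 CPM in hESCs to between 21.3 and 31.6 CPM in NMP-L cells, while SOX17, an endoderm SOX factor, had 1 count in each condition. HES5, SNAI2, FOXA2 and EOMES passed the filter only through their NMP-L libraries, where they were high. The part of neural, neural crest or endoderm cells in the SOX1 level was not tested.

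SOX3, the X-linked SOXB1 gene, was present at a modest level in both conditions. Its counts were 131, 168 and 245 in hESCs and 194, 190 and 201 in NMP-L cells, none of them fractional. In TPM the hESC libraries held 7.16, 8.51 and 12.92 and the NMP-L libraries 9.19, 9.54 and 9.41. The NMP-L libraries lay within the wider hESC range, in which replicate 3 was the highest. The coefficient of variation of TPM was 31.6% in hESCs and 1.89% in NMP-L cells. The log2 fold change was -0.12 (standard error 0.19, adjusted p = 0.61 by edgeR's quasi-likelihood test), and the 95% interval, from -0.53 to 0.29, spans 0.691 to 1.23 times the hESC level. The sign of this value is not fixed by the data, since it was 0.14 without hESC replicate 3 and 0.02 on the log2(TPM + 0.1) scale.

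SOX21, the SOXB2 gene that counteracts SOXB1 activity in neural progenitors, rose in NMP-L cells. It had 348.05, 289.05 and 387 counts in hESCs and 848.21, 600.09 and 740 in NMP-L cells. In TPM this was 13.32, 10.26 and 14.29 against 28.15, 21.1 and 24.27, so that the lowest NMP-L library lay above the highest hESC library. Non-overlapping ranges were common in this comparison, with 61.6% of all genes tested showing them. The rise was 1.82-fold, with a 95% interval from 1.47 to 2.26 (log2 fold change 0.86, standard error 0.14, adjusted p = 3.1e-04 by edgeR's quasi-likelihood test). In replicate 3 of each condition, where all SOXB counts were whole, SOX21 had 387 and 740 counts. SOX14, its SOXB2 relative, which marks subsets of interneurons later in development, had 2 counts in hESC replicate 1 and 0 in the other 5 libraries. This is at or under the detection limit, which corresponds to between 0.125 and 0.160 CPM per library for counting error alone, and no fold is given.

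The order of the levels per transcript length was SOX2, SOX21, SOX3, SOX1 and SOX14 in both conditions. In NMP-L cells no neighbours in this order overlapped. In hESCs the ranges of SOX21 and SOX3 overlapped, as did those of SOX1 and SOX14, although SOX21 exceeded SOX3 within each hESC library by a factor of 1.11 to 1.86. This factor was 2.21 to 3.06 in NMP-L libraries. The length that RSEM used for SOX1 was 1.66 times that used for SOX2, as computed from the ratio of counts to TPM, whereas the GENCODE transcripts give a ratio of 1.81. The TPM and the share of SOX1 thus rest on a shorter length than the coordinates given above.

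The share of each gene in the summed SOXB1 TPM was then calculated, a measure within each library that does not depend on scaling between libraries. The sum of SOX1, SOX2 and SOX3 was 242.2, 217.03 and 226.85 TPM in hESCs and 250.68, 236.42 and 294.17 TPM in NMP-L cells. These ranges overlapped (two-sided exact permutation test, p = 0.2). SOX2 held 97.0%, 95.9% and 94.3% of the sum in hESCs and 93.7%, 93.9% and 94.7% in NMP-L cells, a mean of 95.7% ± 1.36 against 94.1% ± 0.506 (SD, n = 3 each) that also overlapped (exact permutation test, p = 0.2). In expected counts, and as a share of all 5 SOXB genes in TPM, the SOX2 share was lower in every NMP-L library than in every hESC library (exact permutation test, p = 0.1 each). SOX1 held 0.0784%, 0.147% and 0.0441% in hESCs, and 2.64%, 2.06% and 2.15% in NMP-L cells. The difference of 2.20 percentage points separated all libraries (exact permutation test, p = 0.1, which is the lowest p a design of 3 against 3 can reach). SOX3 held 2.96%, 3.92% and 5.70% in hESCs and 3.67%, 4.04% and 3.20% in NMP-L cells, with overlapping ranges (exact permutation test, p = 0.7). Thus SOX2 made up at least 93.7% of the SOXB1 TPM sum in every library. In TPM, SOX1 stayed the smallest part of that sum in NMP-L cells, at 51.2% to 72.1% of the SOX3 level. In expected counts, uncorrected for length, the order of SOX1 and SOX3 was reversed in every NMP-L library. SOX1 had 284.08, 197.03 and 274 counts in NMP-L replicates 1, 2 and 3, against 194, 190 and 201 for SOX3. Which of them is the smaller in NMP-L cells thus depends on the length correction.

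**Figure D2:**
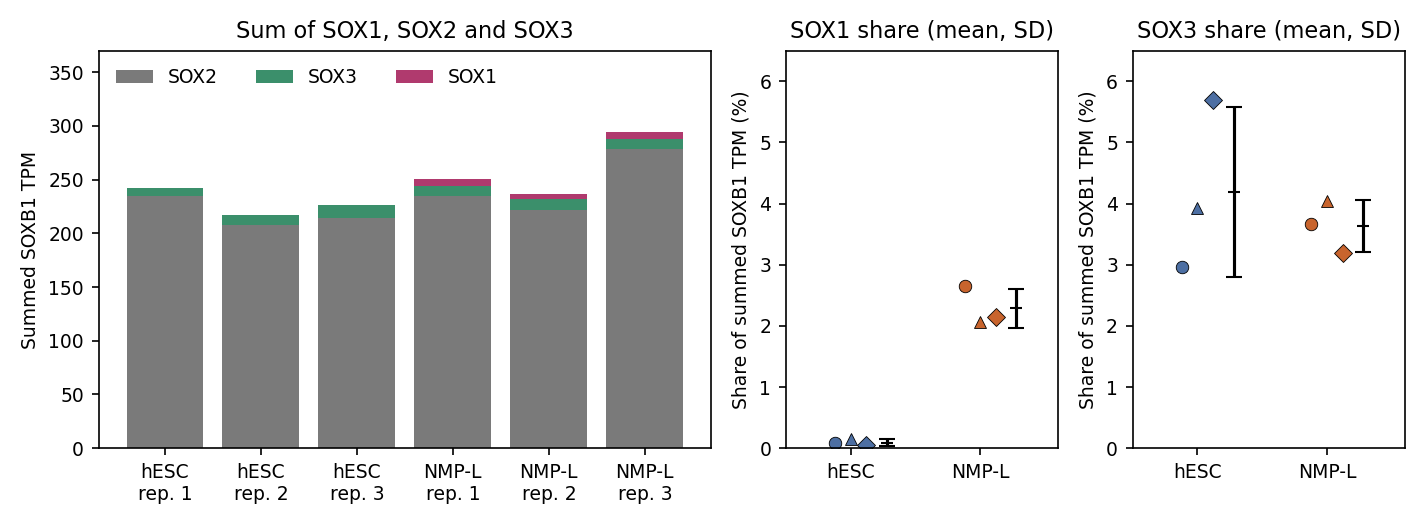
Left, TPM of SOX2, SOX3 and SOX1 stacked for each library; right, the share of SOX1 and of SOX3 in that sum in percent, with libraries as points (circle, triangle and diamond for replicates 1, 2 and 3) and the mean and SD of 3 beside them. SOX2 fills most of each bar, the SOX1 share lies between 2.06% and 2.64% in NMP-L libraries and at or below 0.147% in hESC libraries, and the SOX3 share overlaps.

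SOXB2 transcripts, nearly all of them from SOX21, were then set against SOXB1 transcripts. SOX21 amounted to 5.51% ± 0.786 of the SOXB1 sum in hESCs and to 9.47% ± 1.56 in NMP-L cells (SD, n = 3 each), with the lowest NMP-L library at 8.25% and the highest hESC library at 6.30% (exact permutation test, p = 0.1). SOX2 exceeded SOX21 by 15.0 to 20.3 times in hESC libraries and by 8.34 to 11.5 times in NMP-L libraries. Over the 5 tests of sums and shares the adjusted p was 0.25 for each but the SOX3 share, for which it was 0.7.

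**Figure D3:**
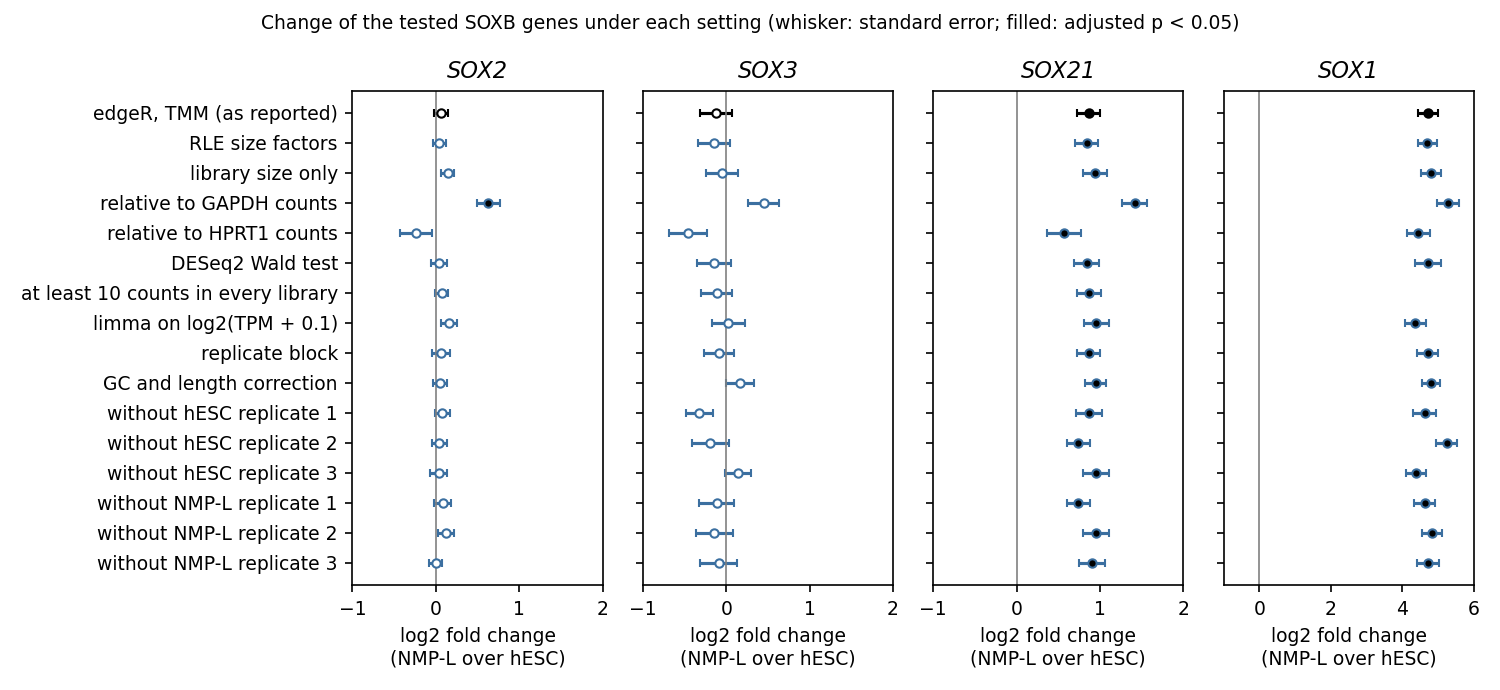
Log2 fold change (NMP-L over hESC, horizontal axis, a wider one for SOX1) of the 4 tested SOXB genes under each processing setting, with the standard error as whiskers and filled points for an adjusted p under 0.05. SOX1 and SOX21 stay above 0 in every setting shown, whereas SOX2 and SOX3 lie on both sides of 0. SOX2 ranges from -0.24 to 0.63. Its highest value, relative to GAPDH counts, is past the threshold, in a setting where the median of all genes tested is 0.59.

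Noncoding genes beside the SOXB genes were examined next. SOX1 lies within SOX1-OT on the same strand, without overlap of annotated exons, and SOX1-OT was not analysed here. SOX2 lies within SOX2-OT, a long noncoding gene on the same strand whose annotated exons do not overlap SOX2. SOX2-OT had 74, 60 and 55 counts in hESCs and 157, 155 and 144 in NMP-L cells. Every NMP-L library lay above every hESC library, where 61.6% of all genes tested had ranges that did not overlap. The log2 fold change of SOX2-OT was 1.04 (standard error 0.17, adjusted p = 2.7e-04 by edgeR). SOX21-AS1, antisense to SOX21, had 97, 60 and 88 counts in hESCs and 135, 97 and 171 in NMP-L cells, with overlapping ranges (log2 fold change 0.48, standard error 0.21, adjusted p = 0.077 by edgeR). It passed the threshold in 5 alternatives by edgeR, with adjusted p = 0.044 without hESC replicate 1, 0.034 without NMP-L replicate 2, 0.044 with a replicate block, 0.047 scaled by library size only and 0.0064 relative to GAPDH counts. Its annotated exons do not overlap SOX21. No source states that counting used strand, so reads outside the annotated exons cannot be assigned to either strand.

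The 250 bases before the RefSeq start of SOX1 and SOX21, the members that rose together, and of SOX2, which did not change detectably, are shown for comparison. Promoter entries matched 4 of the 5 genes (RefSeq, GRCh38.p14), SOX14 not among them. Capitals mark a TCF/LEF core, a CCAAT box or a TATA box on either strand, by the letters given after the sequences.

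SOX1 (GRCh38.p14 chr13:112066899-112067148, plus strand): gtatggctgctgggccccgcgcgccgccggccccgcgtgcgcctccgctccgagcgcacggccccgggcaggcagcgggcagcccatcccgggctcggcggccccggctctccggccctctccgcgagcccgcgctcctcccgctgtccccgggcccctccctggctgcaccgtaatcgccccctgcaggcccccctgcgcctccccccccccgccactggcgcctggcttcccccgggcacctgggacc

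SOX21 (GRCh38.p14 chr13:94712546-94712795, minus strand): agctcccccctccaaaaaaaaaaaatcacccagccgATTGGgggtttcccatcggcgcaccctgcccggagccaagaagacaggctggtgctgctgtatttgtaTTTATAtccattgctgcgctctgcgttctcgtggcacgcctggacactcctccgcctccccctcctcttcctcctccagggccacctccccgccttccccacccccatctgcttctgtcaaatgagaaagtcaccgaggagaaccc

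SOX2 (GRCh38.p14 chr3:181711675-181711924, plus strand): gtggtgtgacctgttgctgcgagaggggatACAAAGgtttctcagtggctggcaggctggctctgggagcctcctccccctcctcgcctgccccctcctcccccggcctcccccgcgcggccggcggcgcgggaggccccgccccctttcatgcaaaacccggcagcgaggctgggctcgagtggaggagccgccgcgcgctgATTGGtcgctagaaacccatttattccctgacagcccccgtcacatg

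None of the marked motifs was found in the SOX1 window, which was the richest in G and C of the 4 at 82% (percentile 98.3 of 35116 promoters). It held 31 CpG dinucleotides, against 20 for SOX2, 17 for SOX3 and 11 for SOX21, and a median of 11 over all promoters. SOX2, SOX3 and SOX21 each held 1 CCAAT box, which 32% of all promoters hold. Only SOX2 among the 4 held a TCF/LEF core, in the form CTTTGT that 13.7% of promoters hold (11.2% hold CTTTGA). Only SOX21 held TATAAA (10.7%), on the opposite strand at position -146 from the RefSeq start. The SOX3 window, not shown, held the similar letters TATATAAGG, which this search did not count. A POU octamer (ATGCAAAT, 1.63% of promoters) and a SOX core (ACAAT, 24.6%) were in none of the 4, which says only that these letters are not in these windows. Other forms of a SOX or POU site were not searched, so the windows may hold them.

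Genes that SOXB1 proteins act with and act on were counted from 3 lists. Across all genes tested 55.8% differed, 29.1% being higher and 26.7% lower in NMP-L cells. Of 8 DNA-binding partners of SOXB1 proteins, 5 were tested, of which 0 rose and 4 fell. POU5F1, the partner of SOX2 in pluripotent cells, fell from 1326 ± 71.9 CPM to 703 ± 41.0 CPM (SD, n = 3 each, log2 fold change -0.92, standard error 0.07, adjusted p = 1.2e-06 by edgeR). All its counts were fractional, which marks reads shared with related sequences. NANOG (log2 fold change -2.59) and POU3F1 (-0.96), a POU factor of pluripotent and neural cells, also fell. SALL4, named after its values were seen, fell by 0.70, although relative to GAPDH counts it did not pass the threshold. POU3F2, a neural partner of SOX2, had 3, 4 and 4 counts in hESCs and 4, 3 and 2 in NMP-L cells. The median log2 fold change of the 5 was -0.92, against 0.03 for all genes tested.

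Of 7 genes known as SOX2 targets in pluripotent cells, 6 were tested, 1 higher and 5 lower in NMP-L cells. Their median log2 fold change was -1.88, and 26.7% of all genes tested were lower. FGF4, whose enhancer is bound jointly by SOX2 and OCT4, fell from 84, 97 and 110 counts to 5, 5 and 8 (log2 fold change -4.21, standard error 0.26, adjusted p = 1.5e-07 by edgeR). FGF4 passed the filter only through its hESC libraries. UTF1 (log2 fold change -3.42), DPPA4 (-1.16) and, on both lists, NANOG and POU5F1 made up the rest of those that fell. The exception was FBXO15, named after its values were seen, which rose from 14, 22 and 20 counts to 49, 43 and 54 (1.15, standard error 0.24, adjusted p = 0.0018 by edgeR). The SOX2 transcript level did not differ detectably, although relative to GAPDH counts it was called higher (0.63, adjusted p = 0.0031 by edgeR). Under that scaling the median of all genes tested was 0.59. Whether the changes of the target genes relate to SOX2 was not tested.

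Of 4 genes known as SOXB1 targets in neural cells, all 4 were tested, 1 higher and 3 lower, where 55.8% of all genes tested differed. CDH2 (N-cadherin) rose from 15.5 ± 2.77 CPM to 70.9 ± 2.49 CPM (SD, n = 3 each, log2 fold change 2.20, standard error 0.12, adjusted p = 6.3e-08 by edgeR). SIX3, a forebrain factor (log2 fold change -3.42), and NOTCH1, a receptor of the Notch pathway (-0.87), fell. Of these, SIX3 passed the filter only through its hESC libraries. NES (nestin), named after its values were seen, fell by 0.49, a direction that turned relative to GAPDH counts (0.07).

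**Figure D4:**
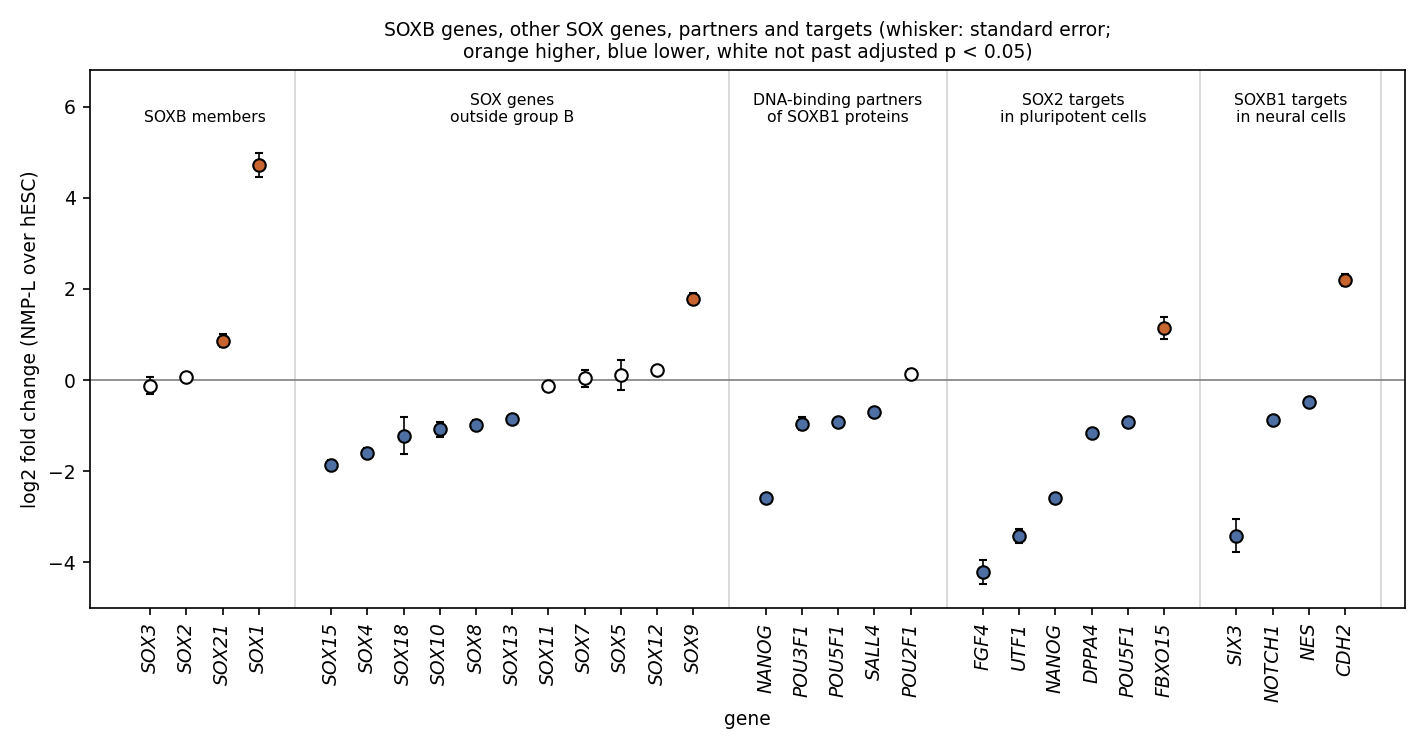
Log2 fold change (NMP-L over hESC, vertical axis) of each tested gene of the SOXB group, the other SOX genes, and the partner and target lists, with the standard error as whiskers, orange for higher, blue for lower and white for genes that did not pass an adjusted p of 0.05. SOX1 has the largest rise of the genes shown, and FGF4 at -4.21 the largest fall.

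Finally, genes with a profile like that of each SOXB gene were found by the distance between log2(TPM + 0.1) values over the 6 libraries, each gene centred on its own mean, among 15516 other genes. For SOX1 the nearest were LRRC10B (distance 0.517), ALDH1A2 (0.519) and APCDD1 (0.530). For SOX2 they were CALD1 (0.0747), HNRNPDL (0.0775) and SIAH1 (0.0864), for SOX3 DAPK2 (0.208), SLC6A3 (0.226) and C6orf226 (0.302), and for SOX21 FAM86JP (0.154), C1orf56 (0.154) and KCNV1 (0.213). ALDH1A2, which makes retinoic acid, was at 0.03, 0.15 and 0.03 TPM in hESCs and 3.62, 2.96 and 4.51 TPM in NMP-L cells. Over 6 libraries in 2 conditions such a likeness mostly describes the size of the change and the order of the replicates.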

How the data were processed

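Polyadenylated RNA (Kapa mRNA HyperPrep, single-end 76-base reads) was measured in 3 hESC and 3 NMP-L libraries, grouped by their titles. The deposited table holds, for each gene symbol, expected counts from RSEM that are not normalised between libraries, and TPM, both made by the authors. Per the labels' processing notes the build was hg19, with cutadapt 1.9.1, STAR 2.5.2a, RSEM 1.3.0 and DESeq2 1.12.3 named. The annotation is not given in the sources used here. All per-sample columns were used.

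Expected counts, rounded to whole numbers, were tested with edgeR 4.0.16 (R 4.3.3): filterByExpr with a minimum count of 10, TMM, and the quasi-likelihood test for condition, with Benjamini-Hochberg adjustment over all 15517 genes and a threshold of 0.05. Standard errors are the log2 fold change divided by the square root of F. Sums and shares of TPM were compared by two-sided exact permutation tests in scipy 1.17.1. The pipeline was tested on simulated data. Alternatives used DESeq2 1.42.0, limma 3.58.1, other scalings and filters, a replicate block and each library left out. A fit corrected for transcript length and GC content (86.3% of genes matched) was added after the data were seen. The labels call the libraries biological replicates, and whether the separate experiments that the methods state under ChIP-seq cover the RNA is unclear, so p-values measure the spread between these libraries. Coordinates come from GENCODE 44 on GRCh37 and promoters from RefSeq on GRCh38.p14.

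The members and gene lists were chosen with earlier results of these data known. Named genes are the SOXB genes and their noncoding neighbours, POU5F1, NANOG, POU3F1, POU3F2, PAX6 and T, and from each list up to 3 genes past the threshold with the largest change and at least 1 CPM. GAPDH and HPRT1 are named as scaling genes, and the nearest profiles by their distance. SOX11 is named outside this rule, as a relative of SOX4. Other genes outside it are marked as chosen after their values were seen, or complete a count of a list.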

Additional observations from a re-analysis of the deposited data

How the results depend on the processing

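SOX1 and SOX21 were higher in NMP-L cells and past the threshold under all alternatives that tested them, with log2 fold changes of 2.52 to 5.28 and 0.57 to 1.42. With at least 10 counts in every library, 1 SOXB gene differed in place of 2, since that filter removes SOX1. Scaling by GAPDH counts put the median of all genes at 0.59, and 3 SOXB genes then differed, because SOX2 was called at 0.63 (adjusted p = 0.0031 by edgeR), and SOX3 turned to 0.45. Scaling by HPRT1 counts put that median at -0.27, and SOX2 turned to -0.24. SOX3 was also above 0 with limma on log2(TPM + 0.1) (0.0218) and on log2(TPM + 1) (0.0166), when corrected for transcript length and GC content (0.16) and without hESC replicate 3 (0.14). With TMM scaling GAPDH itself was lower in NMP-L cells (log2 fold change -0.55, adjusted p = 1.4e-04 by edgeR). HPRT1 was at 0.28 and did not pass the threshold (adjusted p = 0.069 by edgeR). The cause of the turns of SOX2 and SOX3 was not tested.

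With each library left out in turn, the log2 fold change was 4.39 to 5.24 for SOX1, -0.0014 to 0.12 for SOX2, -0.32 to 0.14 for SOX3 and 0.74 to 0.95 for SOX21. The share of the SOXB1 sum then changed by 2.02 to 2.31 percentage points for SOX1, -2.37 to -1.02 for SOX2 and -1.17 to 0.19 for SOX3, which turned without hESC replicate 3 (0.195). In expected counts, uncorrected for length, the SOX1 share changed by 3.61 and the SOX2 share by -3.10 percentage points, and over all 5 SOXB genes the SOX2 share changed by -4.76; in both, the SOX2 ranges no longer overlapped. The log2 change of the SOXB1 sum lay between 0.09 and 0.25.

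Replicate numbers are shared between conditions, but same-numbered libraries did not deviate together across genes (correlations -0.37, -0.06 and -0.13 for replicates 1, 2 and 3). With a replicate block 7560 in place of 8654 genes differed, 2 SOXB genes among them, and the values were 4.72 for SOX1, 0.06 for SOX2, -0.09 for SOX3 and 0.86 for SOX21. The block also took SOX21-AS1 past the threshold (adjusted p = 0.044 by edgeR). Paired sign-flip tests of the shares and the sum, which cannot give less than 0.25 with 3 pairs, gave 0.25 for the SOX1 share and the sum, 0.5 for the SOX2 share and 1 for the SOX3 share. Relative to GAPDH counts NES turned to 0.0736. Of 32 named genes outside the family, 27 kept direction and side of the threshold in every alternative tried. Of 33 partner, target, SOX and noncoding genes, 17 to 24 differed (20 as reported).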

Other observations

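Of 14 SOX genes outside group B 11 were tested, with 1 higher, 6 lower and 4 not past the threshold (55.8% of all genes tested differed), and a median log2 fold change of -0.86 against 0.03 for all genes tested. SOX9, a SOXE factor, rose from 177, 206 and 205 counts in hESCs to 825, 653 and 908 in NMP-L cells (log2 fold change 1.79, standard error 0.12, adjusted p = 2.3e-07 by edgeR). SOX15, the SOXG gene, fell from 649, 643 and 670 counts to 224, 204 and 204 (-1.86, standard error 0.11, adjusted p = 8.7e-08 by edgeR). SOX4, a SOXC factor and by TPM the next most abundant of these and the SOXB genes in hESCs after SOX2, fell from 163.14, 122.89 and 140.72 TPM to 45.65, 48.45 and 57.03 TPM (-1.59 in edgeR on counts, standard error 0.10). These 3 kept their direction under every alternative tried. Its relative SOX11 overlapped between conditions, at 18.9 to 22.87 TPM in hESCs and 18.17 to 23.34 TPM in NMP-L cells.

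All 7 pluripotent cell markers were lower in NMP-L cells, as were 26.7% of all genes tested. Their sum fell from 6581 to 6779 CPM in hESC libraries to between 2861 and 3028 CPM in NMP-L libraries. POU5F1, NANOG and DPPA4 are also on the lists above, so these counts are not separate results. SOX2, which is active in the same cells, did not change detectably. Of 8 neuromesodermal progenitor markers 7 were higher, against 29.1% of all genes tested, and FGF17 was lower. Several of the 7, T and CDX2 among them, passed the filter only through their NMP-L libraries. Of 6 paraxial mesoderm markers 3 were tested, with TBX6 (-1.24) and TCF15 (-1.95) lower on the log2 scale and MESP2 (0.18) not past the threshold. MSGN1 had 0 counts in each hESC library and 7, 4 and 2 in NMP-L cells, MESP1 had 1, 0 and 4 against 6, 8 and 5, and MEOX1 had 0 in each hESC library against 1, 1 and 0, all too low to be tested.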
